A study of Mus musculus with 6 samples.

Results

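Retinoic acid is the active form of vitamin A, and 9 of the 56953 genes in the table were chosen by name for their part in making, carrying, sensing and removing it. They are the retinaldehyde dehydrogenase genes Aldh1a1, Aldh1a2 and Aldh1a3, the carrier genes Crabp1 and Crabp2, the receptor genes Rara, Rarb and Rarg, and the degrading enzyme gene Cyp26b1, and each matched 1 identifier. RNA was sequenced in bulk from mouse embryonic fibroblasts (MEFs, connective tissue cells grown from mouse embryos) in 6 libraries, 3 labelled WT and 3 labelled GαqKO. The study names the GαqKO cells as a Gαq/11 knockout, of the G protein alpha subunits Gαq and Gα11, and both lines were grown in serum-containing medium with no treatment named. The sources used here name no more than 1 line per genotype, so genotype and any other difference between the lines cannot be told apart.

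In cells, retinol is oxidized to retinal by enzymes such as RDH10, and oxidized again to retinoic acid by the ALDH1A enzymes. Retinoic acid is bound by CRABP1 and CRABP2 in the cytoplasm, acts through RAR receptors paired with RXR receptors on DNA, and is cleared by the CYP26 enzymes. The pathway is best known for patterning limbs, face and hindbrain in the embryo, where fibroblast-like mesenchyme is one of its targets.

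The receptor pair RAR-RXR is known for binding DR5 elements, which are direct repeats of a 6-base motif separated by 5 bases. The motif was searched as AGGTCA and in its forms AGTTCA, or GGGTCA, as well as GGTTCA. In the RefSeq promoter windows, which run from 250 bases before to 50 bases after a transcript start, a DR5 on either strand was found in 32 of 32851 windows (0.0974%). The table holds windows for 50 of the retinoid and retinoic acid responsive genes listed here, and Rarb and Cyp26a1 were the 2 with a DR5. Their windows are shown because they hold the textbook response element, with the DR5 in capitals, next to those of Crabp1 and Cyp26b1, which are shown because these members differed most upward between the lines. Positions are in GRCm39, by match of the RefSeq sequences of build GRCm38.p6 to that genome, at chr14:5894037-5894336 (plus strand) for Rarb, chr19:37686006-37686305 (plus strand) for Cyp26a1, chr9:54671782-54672081 (plus strand) for Crabp1 and chr6:84570743-84571042 (minus strand) for Cyp26b1.
Rarb: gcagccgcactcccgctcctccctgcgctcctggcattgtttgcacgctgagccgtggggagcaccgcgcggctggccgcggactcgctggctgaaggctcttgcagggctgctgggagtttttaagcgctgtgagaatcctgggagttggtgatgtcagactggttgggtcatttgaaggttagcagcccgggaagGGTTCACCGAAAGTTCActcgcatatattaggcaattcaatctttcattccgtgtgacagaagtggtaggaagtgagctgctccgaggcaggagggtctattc
Cyp26a1: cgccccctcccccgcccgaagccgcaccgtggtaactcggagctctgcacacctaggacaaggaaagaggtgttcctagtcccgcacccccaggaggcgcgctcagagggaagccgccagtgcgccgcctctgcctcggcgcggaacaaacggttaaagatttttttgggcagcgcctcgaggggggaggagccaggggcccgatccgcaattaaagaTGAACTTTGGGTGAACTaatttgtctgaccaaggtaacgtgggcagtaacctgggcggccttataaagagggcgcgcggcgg
Crabp1: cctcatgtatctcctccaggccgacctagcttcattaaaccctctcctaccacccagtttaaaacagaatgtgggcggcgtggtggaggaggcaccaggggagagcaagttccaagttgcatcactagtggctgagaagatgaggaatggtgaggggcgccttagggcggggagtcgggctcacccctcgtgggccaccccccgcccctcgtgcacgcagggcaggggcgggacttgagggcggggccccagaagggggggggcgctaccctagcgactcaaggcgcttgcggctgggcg
Cyp26b1: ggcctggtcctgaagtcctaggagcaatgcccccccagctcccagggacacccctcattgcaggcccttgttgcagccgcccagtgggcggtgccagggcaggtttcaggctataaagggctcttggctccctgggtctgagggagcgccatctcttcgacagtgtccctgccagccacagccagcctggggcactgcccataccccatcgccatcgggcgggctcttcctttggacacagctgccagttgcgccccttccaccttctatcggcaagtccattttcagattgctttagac
The DR5 of Rarb begins 53 bases before the transcript start on the strand of the gene, and that of Cyp26a1 lies on the opposite strand, beginning 32 bases before the start. The windows of Crabp1 and Cyp26b1 hold no match to the 6-base motif on either strand, whereas 43.7% of all windows hold at least 1, which says only that these letters are not in those 300 bases. Direct repeats spaced by 2 bases (DR2, 0.268% of windows) or 1 base (DR1, 0.222%) were found in no window of a member. The table has no window for Crabp2 or Aldh1a3.

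The values are normalized counts, that is, reads counted per gene and divided by 1 size factor per library, with a sum between 11392429 and 11483486 per library. The 5 libraries whose reads could be recovered held from 9853000 to 12229175 reads on genes, so 3 reads, taken here as the floor, are worth 2.82 to 3.47 normalized counts, and this floor covers counting error only. Differences are log2 fold changes of GαqKO over WT from limma on log2(normalized count + 1), which understates changes of low genes, with Benjamini-Hochberg adjusted p over the 14096 genes that reached 10 normalized counts in 3 or more libraries. Of these genes, 65.8% had an adjusted p under 0.05, 31.8% higher and 34.1% lower in GαqKO, and 20.7% also had a log2 fold change over 1 or under -1. Gna11, the gene of Gα11, fell 4.76-fold in GαqKO (adjusted p = 9.16e-13, limma), while Gnaq was 1.14-fold higher (adjusted p = 0.00212, limma). The study reports that its GαqKO cells lack Gαq protein, by Western blot and immunofluorescence. The counts here measure the transcript level only, which was not lower for Gnaq, and say nothing of the protein. GαqKO below stands for the libraries labelled so. Among the fibroblast markers, Col1a1, Col1a2, Col3a1, Vim and Pdgfrb were present in each library, and Lum was at or under 4.0 in all 6 libraries. In WT, Thy1 was at or under 2.1, Dcn at or under 35.5 and Pdgfra at or under 21.9 normalized counts. In GαqKO they stood at 59.0 to 76.5, 1604.2 to 1710.0 and 2273.9 to 2356.4, and Thy1 passed the filter only through these values. Col1a1 fell 2.89-fold. Of the 10 fibroblast markers tested, 5 were higher and 5 lower in GαqKO (adjusted p under 0.05, limma), against 31.8% and 34.1% of all genes tested. The 7 epithelial markers summed to between 519.2 and 545.0 normalized counts per WT library and to between 21.1 and 48.6 per GαqKO library, and Krt5 was at or under 1.0 in each. Krt14 and Cdh1 made up most of that sum in WT, at 253.5 to 261.0 and 235.1 to 241.2 normalized counts. Of the 3 epithelial markers tested, these 2 fell, though Krt14 passed the filter only through its WT values. Trp63 was higher, at 1.0 to 4.2 normalized counts in WT and 11.1 to 25.4 in GαqKO, and passed the filter only through its GαqKO values. The neural marker Tubb3 fell from 406 ± 35.5 to 60.9 ± 12.1 normalized counts (SD, n = 3 each; adjusted p = 1.7e-09, limma), and the 7 Y-linked genes tested had a median log2 fold change of -8.21. The part of these differences between the lines in the retinoid results was not tested, and in bulk RNA fewer cells of a type and less RNA per cell cannot be told apart.

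Of the 9 members, 7 passed the filter on low values, 4 were higher and 2 lower in GαqKO (adjusted p under 0.05, limma), and 1 did not pass the test, against the 65.8% of all genes tested that were called. Past the fold threshold as well there were 4 members, 3 higher and 1 lower, against 20.7% of all genes tested. Both counts of lower members include Aldh1a1, which passed the filter only through its WT values. The median log2 fold change of the 7 members was 0.88, and that of all genes tested was -0.012. By role, both carriers and the degrading enzyme rose by large folds, Rarg rose and Rara fell by less than the fold threshold, and the synthesis genes were at or under 17.5 normalized counts in each library.

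**Figure D1:**
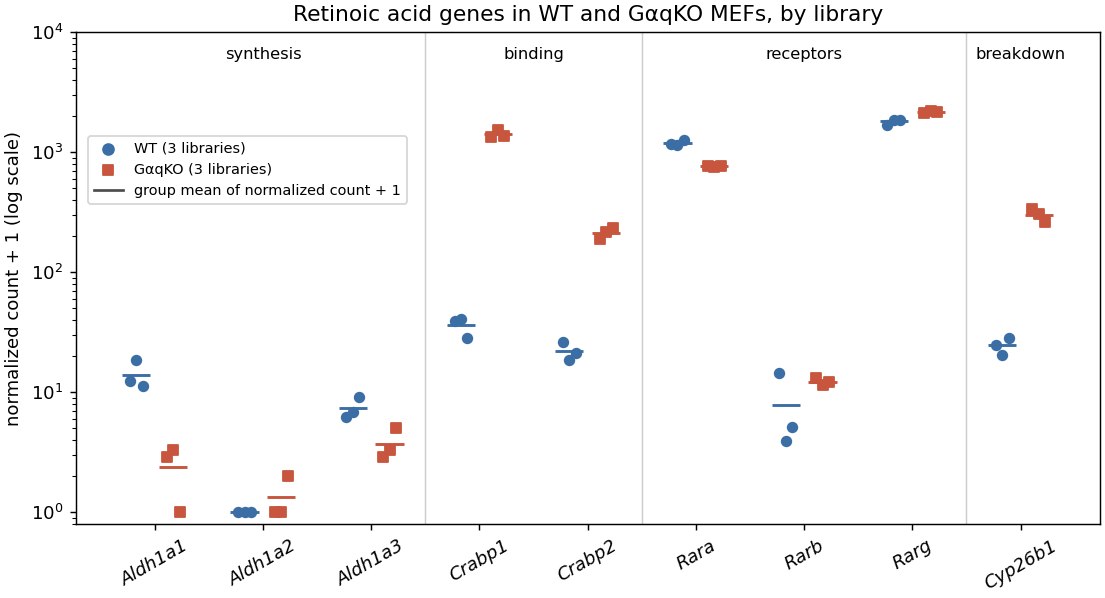
Normalized counts plus 1 (log scale) of the 9 retinoic acid genes, grouped by role, with 1 point per library (blue circles, 3 WT libraries; red squares, 3 GαqKO libraries) and a line at each group mean. Crabp1, Crabp2 and Cyp26b1 sit at 17.5 to 39.8 normalized counts in WT and at 187.8 to 1544.7 in GαqKO, while Rara and Rarg lie at or above 752.7 in each library and the Aldh1a genes at or below 17.5.

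The largest difference was that of Crabp1 (ENSMUSG00000032291.9, chromosome 9, 54671171 to 54680403, plus strand), whose product binds retinoic acid in the cytoplasm and is known for delivering it to breakdown. Crabp1 had 38.6, 39.8 and 27.5 normalized counts in the WT libraries and 1351.3, 1544.7 and 1358.5 in the GαqKO libraries. The groups were far apart, the lowest GαqKO library standing well above the highest WT library. Means were 35.3 ± 6.81 in WT and 1418 ± 109.7 in GαqKO (SD, n = 3 each), a 40.2-fold rise, or 5.30 ± 0.13 on the log2 scale (SE, adjusted p = 8.24e-13, limma). By this fitted change Crabp1 was the 78th largest rise of the 14096 genes tested. Per kb of exon, its mean level stood at percentile 29.2 in WT and 95.9 in GαqKO among the 13635 genes tested that have exon outside other genes.

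Crabp2 (ENSMUSG00000004885.6, chromosome 3, 87855973 to 87860683, plus strand) encodes the carrier known for passing retinoic acid to RAR in the nucleus. It had 25.1, 17.5 and 20.4 normalized counts in WT and 187.8, 216.2 and 234.6 in GαqKO, so that here too all GαqKO libraries were above all WT libraries. Crabp2 rose 10.2-fold, or 3.29 ± 0.19 on the log2 scale (SE, adjusted p = 2.54e-09, limma). Per kb of exon, Crabp1 stood 1.37 to 2.30 times as high as Crabp2 in the WT libraries and 5.87 to 7.29 times as high in the GαqKO libraries. Their summed level per kb was 42.9 ± 6.07 in WT and 1248 ± 88.5 in GαqKO (SD, n = 3 each). Fabp5, which encodes a carrier that can hand retinoic acid to the receptor PPARδ instead, had 130 ± 6.95 and 145 ± 9.84 normalized counts (SD, n = 3 each), with a 95% confidence interval of its log2 fold change from -0.11 to 0.41 (adjusted p = 0.294, limma). Crabp2 was thus below Fabp5 per kb in each WT library, at 0.362 to 0.570 of its level, and above it in each GαqKO library, at 3.91 to 4.37 times its level.

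Cyp26b1 (ENSMUSG00000063415.13, chromosome 6, 84548396 to 84570890, minus strand) encodes a cytochrome P450 that oxidizes retinoic acid to inactive products, and in the embryo it is known for keeping tissues such as the limb and the fetal testis low in retinoic acid. Its normalized counts were 24.0, 19.4 and 27.5 in WT and 335.2, 302.9 and 261.8 in GαqKO. Groups did not overlap, and the spread among GαqKO libraries was small beside the gap between the lines. Cyp26b1 rose 12.7-fold, or 3.62 ± 0.17 on the log2 scale (SE, adjusted p = 4.41e-10, limma). Its paralog Cyp26a1, whose promoter window holds a DR5, was listed at 0.0 to 4.9 normalized counts in WT and 0.0 to 3.0 in GαqKO and was under the filter. Cyp26b1 held 58.0 to 100.0% of the summed Cyp26a1 and Cyp26b1 level per kb in the WT libraries, where Cyp26a1 was near the floor, and 96.8 to 100.0% in the GαqKO libraries. Cyp26c1 was listed at 0 in each library, with all of its exons inside the span of another gene.

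Per kb of exon, Rarg and Rara were the most abundant members in WT, while in GαqKO Crabp1 was above both. Rara (ENSMUSG00000037992.17, chromosome 11, 98818612 to 98865768, plus strand) had 1166.4, 1142.4 and 1259.1 normalized counts in WT and 770.0, 752.7 and 764.3 in GαqKO. It was lower in each GαqKO library than in any WT library and fell 1.56-fold, or -0.64 ± 0.055 on the log2 scale (SE, adjusted p = 1.8e-07, limma). Rarg (ENSMUSG00000001288.16, chromosome 15, 102143373 to 102165952, minus strand) moved the other way, from 1691.6, 1857.4 and 1866.7 normalized counts in WT to 2137.2, 2216.5 and 2171.2 in GαqKO. That rise was 1.20-fold, or 0.27 ± 0.049 on the log2 scale (SE, adjusted p = 0.000268, limma), with groups that did not overlap. Groups were likewise apart in 69.6% of all genes tested.

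Rarb (ENSMUSG00000017491.10, chromosome 14, 5650540 to 6041094, plus strand) encodes the receptor that is itself a textbook target of retinoic acid through its DR5. It had 13.6, 2.9 and 4.1 normalized counts in WT and 12.2, 10.4 and 11.1 in GαqKO. WT replicate 1 was the highest of the 6 libraries and the other WT libraries were the lowest, so the groups overlapped. The log2 fold change was 0.88 with a 95% confidence interval from -0.19 to 1.95 (adjusted p = 0.133, limma). Without WT replicate 1 it was 1.45, but Rarb then passed the filter only through its GαqKO values. No p-value is therefore given for that fit. Of the 8366 exon bases of Rarb, 4152 lie outside the spans of other genes in the table, such as Top2b, so reads on the remainder may not have been counted.

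Per kb of countable exon, which leaves out bases inside the spans of other genes, Rarg was the highest RAR gene in each library, Rara the second and Rarb the lowest, and the 3 ranges did not overlap within either line. Rarg stood 1.97 to 2.21 times as high as Rara in the WT libraries and 3.77 to 4.00 times as high in the GαqKO libraries. Rarg held 66.0 to 68.8% of the summed RAR level per kb in WT and 78.7 to 79.7% in GαqKO, and Rara held 31.1 to 33.5% and 19.9 to 20.8%. The summed level was 581 ± 25.3 normalized counts per kb in WT and 594 ± 6.99 in GαqKO (SD, n = 3 each), and the ranges of the lines overlapped, at 554 to 604 and 587 to 601. The isotypes thus shifted within a sum that differed by less than the spread among WT libraries. Rxra, which encodes a partner receptor of RAR, rose 1.73-fold, with 1061.6 to 1158.0 normalized counts in WT and 1804.6 to 1993.5 in GαqKO (log2 fold change 0.79, adjusted p = 1.74e-08, limma). Rxrb rose 1.15-fold (adjusted p = 0.00568, limma), and Rxrg was at or under 1.0 normalized count in each library. Per kb, Rxra was 0.851 to 0.887 times Rxrb in WT and 1.19 to 1.37 times Rxrb in GαqKO, so their order differed between the lines.

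**Figure D2:**
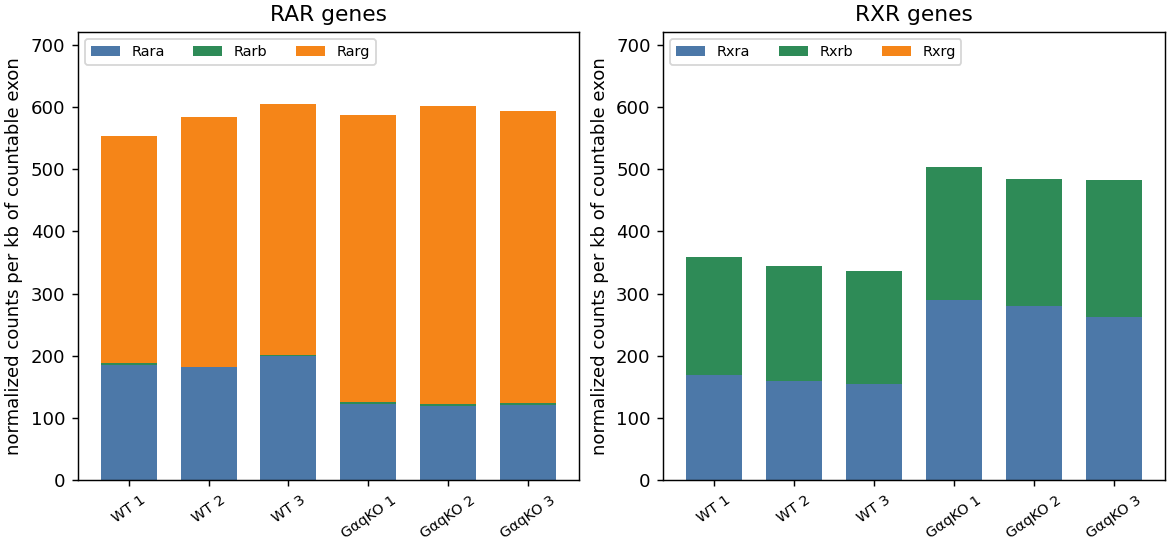
Stacked levels of the RAR genes (left) and RXR genes (right) in each of the 6 libraries, in normalized counts per kb of exon outside the spans of other genes. The RAR stacks reach 554 to 604 in WT and 587 to 601 in GαqKO with a smaller Rara part in GαqKO, and the RXR stacks reach 336 to 358 in WT and 482 to 504 in GαqKO.

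The Aldh1a genes, whose products make retinoic acid, had low values in both lines. Aldh1a1 (ENSMUSG00000053279.9, chromosome 19, 20469539 to 20622825, plus strand) had 11.5, 17.5 and 10.2 normalized counts in WT and 1.9, 2.3 and 0.0 in GαqKO. Its fitted log2 fold change was -2.69 ± 0.56 (SE, limma). It passed the filter only through its WT values, which had to differ from its GαqKO values. No p-value is therefore given for it, though the counts of lower members include it. In the libraries with recovered reads there were 39 reads in 3 WT libraries and 4 in 2 GαqKO libraries, a WT level 6.34 times that of GαqKO with an exact 95% counting interval from 2.29 to 24.4. Aldh1a3 (ENSMUSG00000015134.16, chromosome 7, 66040638 to 66077850, minus strand) had 5.2, 5.8 and 8.1 normalized counts in WT and 1.9, 2.3 and 4.0 in GαqKO and was under the filter, so it was not tested. Aldh1a2 (ENSMUSG00000013584.6, chromosome 9, 71122630 to 71203527, plus strand), whose product makes most of the retinoic acid of the early embryo, was listed at 0 in 5 libraries and at 1.0 in GαqKO replicate 3. All of the exon bases of Aldh1a2 and Aldh1a3 lie outside other spans, as do 8195 of the 10740 of Aldh1a1. Of the 50-base words in Aldh1a1 transcripts, 1.64% also occur in other genes, chiefly Aldh1a7, which had 0.9 to 3.1 normalized counts, whereas no word of Crabp1, Crabp2, Cyp26b1, Rarb or Rarg does.

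The other genes of the pathway came from a list of retinoid genes, of which 42 of 43 matched the table and 24 passed the filter. In GαqKO 14 of the 24 were higher and 3 lower (adjusted p under 0.05, limma), against 31.8% higher and 34.1% lower among all genes tested, and DESeq2 on the recovered reads of 5 libraries called 7 higher and 1 lower. Past the fold threshold as well were 3 of the 24, all higher, against 10.2% higher and 10.5% lower among all genes tested, and the median log2 fold change over the 24 was 0.23. Rdh10, which encodes the enzyme best known for oxidizing retinol to retinal in the embryo, had 210.9, 205.0 and 166.9 normalized counts in WT and 725.9, 841.7 and 721.0 in GαqKO. Rdh10 rose 3.93-fold, or 1.97 ± 0.099 on the log2 scale (SE, adjusted p = 7.23e-10, limma). All GαqKO libraries were above all WT libraries. Rbp2, a retinol carrier known from the intestine, rose 2.69-fold, with 8.7 to 13.2 normalized counts in WT and 26.3 to 34.2 in GαqKO (adjusted p = 0.00132, limma), but had an adjusted p of 0.0821 in DESeq2 on the recovered reads of 5 libraries.

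Among the retinol and retinal oxidoreductase genes, 9 of 19 were tested, of which 7 were higher and 1, Rdh5, was lower, against 31.8% higher and 34.1% lower among all genes tested. Of the 7, only Rdh10 passed the fold threshold, and the others rose 1.19-fold to 1.54-fold. Of the 5221 exon bases of Rdh5, 927 lie outside other genes. Dhrs3, whose product returns retinal to retinol and which is a textbook feedback gene of retinoic acid, had 35.4 ± 10.9 and 35.7 ± 9.31 normalized counts (SD, n = 3 each). The 95% confidence interval of its log2 fold change ran from -0.58 to 0.64 (adjusted p = 0.937, limma). The co-repressor gene Ncor1, whose product holds RAR target genes silent without ligand, fell by 0.23 on the log2 scale (adjusted p = 0.0129, limma), though it had an adjusted p of 0.0908 when limma was run without the trend and 0.058 in DESeq2. Asxl1, a chromatin regulator, was the most abundant gene of the list and rose 1.24-fold (adjusted p = 0.000129, limma). The retinol importer gene Stra6 was at 0.0 to 9.4 normalized counts and under the filter.

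**Figure D3:**
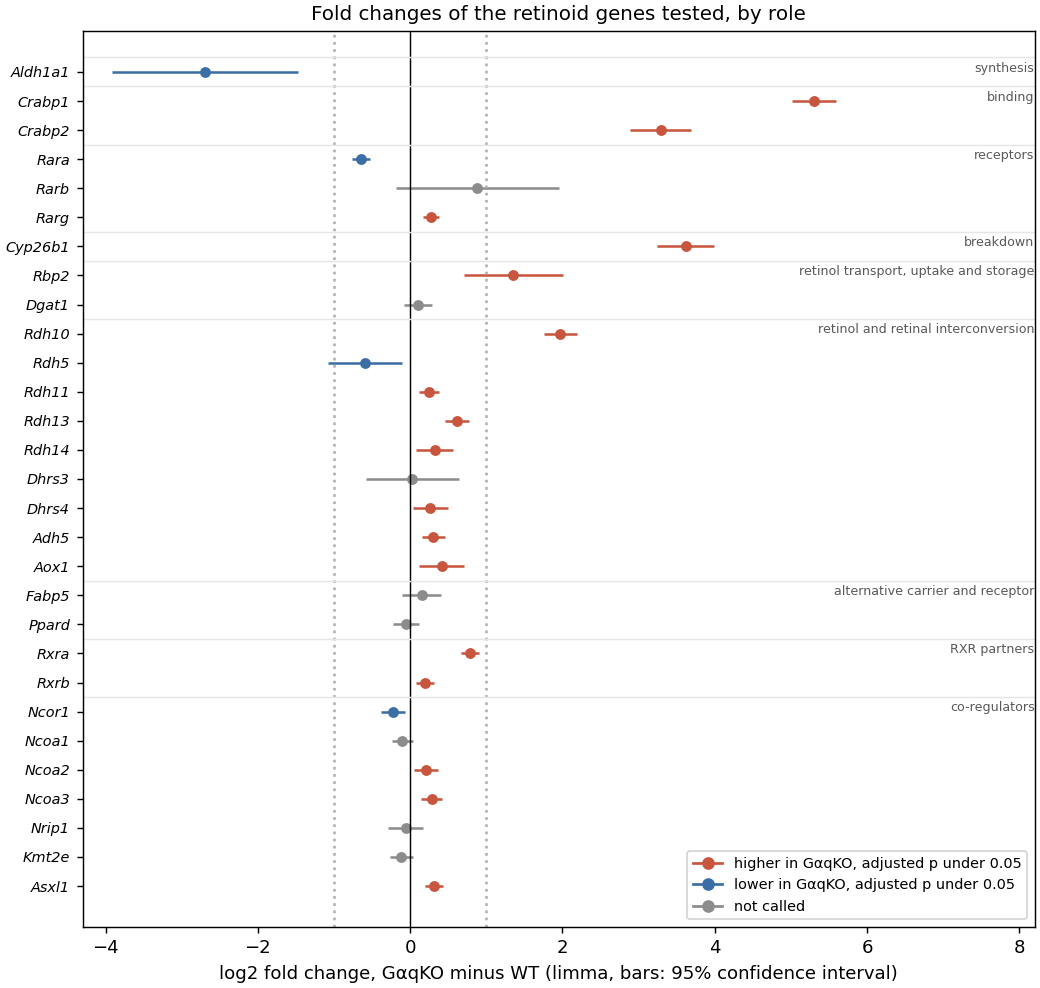
Log2 fold changes of GαqKO minus WT from limma (points) with 95% confidence intervals (bars) for the 7 members tested and 22 other retinoid genes, grouped by role, with dotted lines at 1 and -1. Crabp1 at 5.30, Cyp26b1 at 3.62 and Crabp2 at 3.29 lie farthest to the right, and Aldh1a1 at -2.69 is the only gene left of -1. Aldh1a1 passed the filter only through its WT values.

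Genes known to respond to retinoic acid were counted from a list of 30, of which 17 were tested and which includes Rarb, Crabp2 and Cyp26b1. In GαqKO 8 of the 17 were higher, 5 lower and 4 not called (adjusted p under 0.05, limma), where 31.8% of all genes tested were higher and 34.1% lower. Past the fold threshold were 6 higher and 1 lower, against 10.2% and 10.5% of all genes tested, and the median log2 fold change was 0.35. The members Crabp2 and Cyp26b1 are among the 6. Some genes counted here are also on the list of other retinoid genes, so these counts are not separate from those above. Foxa1 is counted among the 8 and the 6, although it passed the filter only through its GαqKO values. Among the higher genes, Meis2, a homeobox gene of the proximal limb, had 482.5 to 572.2 normalized counts in WT and 1433.0 to 1466.1 in GαqKO, a 2.70-fold rise (adjusted p = 2.95e-10, limma). Rai14, named as a gene induced by retinoic acid, had 1918.2 to 1967.1 and 4826.7 to 5206.9 normalized counts, a 2.58-fold rise (adjusted p = 6.47e-12, limma). Foxa1, a forkhead factor gene, had 0.0, 1.9 and 2.0 normalized counts in WT and 73.2, 84.4 and 76.5 in GαqKO. Its GαqKO values had to differ from its WT values for it to pass the filter in this way, so no p-value is given for it. Its 4 reads in 3 WT libraries against 151 in 2 GαqKO libraries give a ratio of 58.1 with an exact 95% counting interval from 22.2 to 216. Nr2f2, which encodes the nuclear receptor COUP-TFII, rose 1.88-fold (adjusted p = 8.82e-10, limma).

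Other transcription factor genes of the list went down. The homeobox gene Hoxb4 fell from 1076 ± 24.0 to 616 ± 40.8 normalized counts (SD, n = 3 each; adjusted p = 4.87e-08, limma), and the ETS factor gene Ets1 from 2853 ± 26.0 to 2022 ± 30.6 (SD, n = 3 each; adjusted p = 1.25e-07, limma). Meis1 had 840 ± 98.5 and 713 ± 70.8 normalized counts (SD, n = 3 each) in groups that overlapped, with an adjusted p of 0.0329 in limma that was over 0.05 in 8 of 15 alternatives. Of the responsive genes listed here, 5 were listed at 0 in all 6 libraries. Among them, Lrat, Hoxa4, Hoxb5 and Hoxd4 have all of their exons inside the spans of other genes, so their reads may not have been counted.

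**Figure D4:**
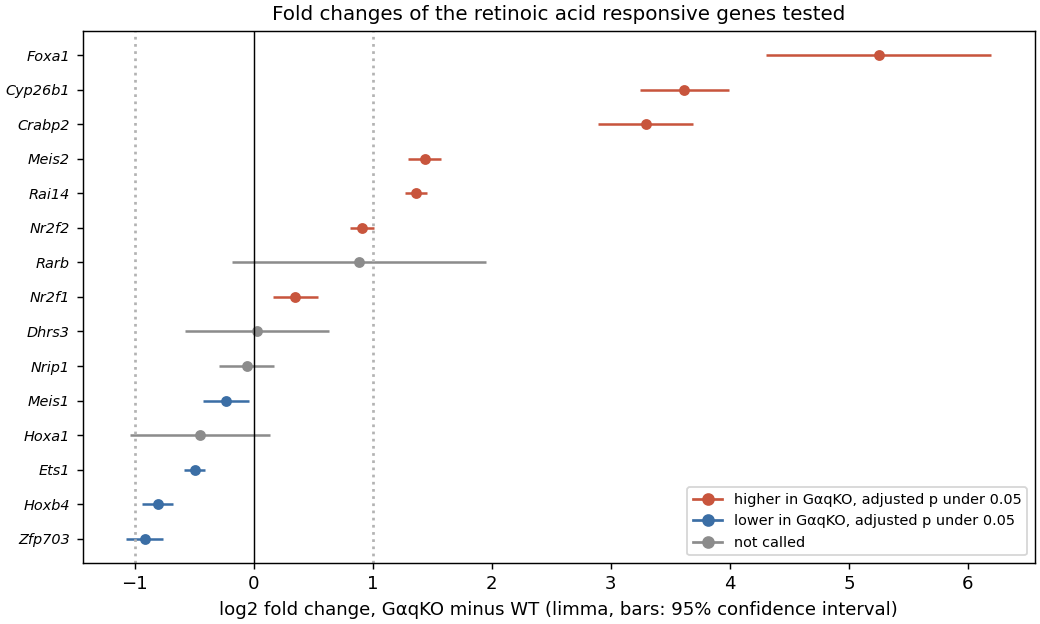
Log2 fold changes of GαqKO minus WT from limma (points) with 95% confidence intervals (bars) for 15 retinoic acid responsive genes, sorted by size, with dotted lines at 1 and -1. The points run from 5.25 for Foxa1 to -0.92 for Zfp703, with 7 genes called higher and 4 lower. Foxa1 is counted among the 7, although it passed the filter only through its GαqKO values.

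The members lie on 8 chromosomes, and the changes of the members past the fold threshold were larger than the shifts of those chromosomes. The median log2 fold change of the genes tested was 0.02 on chromosome 9, 0.32 on chromosome 3, 0.06 on chromosome 6 and -0.15 on chromosome 19. The nearest genes tested on either side of Crabp1, 29.4 and 51.5 kb away, had log2 fold changes of 0.38 for Skic8 and 0.24 for the pseudogene Rab7-ps1. Those of Cyp26b1 were Dysf, 360.4 kb away, at -1.77 and Exoc6b, 20.5 kb away, at -0.14. Next to Crabp2, Isg20l2, 7.8 kb away, was at 0.58, whereas Nes, 17.7 kb away on the other side, fell by 3.05 on the log2 scale, from 7439 to 899 normalized counts (adjusted p = 7.49e-15, limma). The rises of Crabp1, Crabp2 and Cyp26b1 were larger than the change of any of these neighbours in the same direction. Near Aldh1a1, 1500015L24Rik, 46.4 kb away, was at -0.08, Zfand5, 626.4 kb away, at -0.52 and Rorb, 1381 kb away, at -1.7. The part of the chromosome regions in these changes was not tested.

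Over the 6 libraries, the genes with the pattern most like Crabp1 were Plpp3, Tbx18 and Proser1, with Pearson's r of log2(normalized count + 1) of 0.9999, 0.9998 and 0.9998. This likeness is a description, as the 6 libraries form 2 clusters of 3 that share a line, and 771 of the 14096 genes tested had r over 0.99 with Crabp1. The levels of the 3 genes differed less between the lines than that of Crabp1, with log2 fold changes of 2.60 for Plpp3, 2.10 for Tbx18 and 0.69 for Proser1.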

How the data were processed

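RNA was sequenced from 3 WT and 3 GαqKO MEF libraries, grouped by their labels. From poly-A selected RNA, the authors took paired-end reads through Rbowtie2 (GRCm39), featureCounts (GENCODE release 32) and DESeq2, and deposited normalized counts, a signal in which each gene count is divided by 1 size factor per library. Tool versions and the strand setting are not given in the sources used here. A value of 0 in each library was found for 71.5% of the 1607 protein-coding genes with all exon bases covered by neighbouring gene spans, and for 25.2% of the 11516 with none covered, so a 0 is given only as listed. The study states 3 biological replicates per genotype, and p-values measure only the spread between these libraries.

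Symbols, coordinates and exons came from GENCODE release 39 of GRCm39, which matched 56310 of 56953 identifiers. The test was limma with a trend on log2(normalized count + 1), over genes that reached 10 normalized counts in 3 or more of the 6 libraries, and the call thresholds were an adjusted p under 0.05 and, where said, a log2 fold change over 1 or under -1. In 5 libraries 100% of nonzero values were whole multiples of 1 step within 0.01, which gave reads for edgeR and DESeq2; GαqKO replicate 3 did not pass a check of that step and was left out there. Counting intervals are exact binomial intervals at 95% on reads pooled over the libraries of a line, and they leave out the spread between libraries. Named genes are the 9 members, the genes of both lists past both thresholds and the 4 most abundant others of each, the targeted genes, and 3 genes most like the member that changed most. Fabp5, Dhrs3, Stra6, Cyp26a1, Cyp26c1, Rdh5, Rxrb, Rxrg, Aldh1a7, the markers and the neighbours were added after their values were seen, as was Zfp703. A few genes picked by this rule are left unreported, and counts over the lists include them. The members and lists were chosen with earlier results of these data known. The fits were tested on simulated data. R 4.3.3, limma 3.58.1, edgeR 4.0.16, DESeq2 1.42.0, Python 3.11.15, numpy 2.4.6, pandas 2.3.3 and matplotlib 3.10.9 were used.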

Additional observations from a re-analysis of the deposited data

How the results depend on the processing

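Of the members, 2 were lower in GαqKO at an adjusted p under 0.05, but 1 under a filter of 10 normalized counts that all 6 libraries had to reach, and 1 to 2 with single libraries left out, because Aldh1a1 left the genes tested under that filter and without any 1 WT library. The count of other retinoid genes was 14 higher and 3 lower in limma, and 7 and 1 in DESeq2 on the recovered reads of 5 libraries; the cause was not tested. With a pseudocount of 5 the log2 fold change of Aldh1a1 was -1.49, against -2.69. With each library left out, Crabp1 ran from 5.14 to 5.40, Crabp2 from 3.17 to 3.42, Cyp26b1 from 3.49 to 3.73, Rara from -0.67 to -0.60 and Rarg from 0.22 to 0.29, and these 5 members kept their direction and an adjusted p under 0.05 in all 15 alternatives run. Rarb passed the threshold in 1 of 13 alternatives, that without WT replicate 1, where it passed the filter only through its GαqKO values. TMM scaling moved the median of all genes from -0.012 to -0.003.

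The replicate numbers did not pair the libraries: same-numbered libraries deviated from their group means with correlations of -0.045, -0.148 and -0.064. With the replicate number as a block, 4324 genes were higher and 4638 lower, against 4479 and 4800, and the calls of the members were the same. Under the block Meis1 lost its call (adjusted p = 0.0645, limma), and 13 other retinoid genes were higher, against 14. Over the 24 genes that the rule for named genes selected and that were fitted, 336 of 348 alternative values kept the direction and the side of the threshold, 11 lost the call, 1 gained it and 0 changed direction. Depth limits the values of the 3 Aldh1a genes, since 3 reads are worth 2.82 to 3.47 normalized counts.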
